A study of Equus caballus with 20 samples.

Results

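ENSECAG00000014226 is the feature with the highest mean level in the oviduct epithelium of Warmblood mares, 1 of 26740 features listed in the deposited table and of 14692 kept for testing. It was chosen by that mean, so its abundance is given as a description and is not tested. The identifier is an Ensembl gene identifier of the horse. The deposited table gives it no gene symbol. The horse RefSeq gene table at hand carries an Ensembl identifier for 0 of its 39335 entries, so the feature could not be looked up there. Its position, its sequence, its length and the kind of RNA it stands for are therefore not described here. Without its length, its read share cannot be turned into a number of molecules, and shares of different features are compared only as shares of reads.

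The libraries came from epithelial cells taken 4 days after ovulation from the ampullary-isthmic junction, where the wide upper part of the oviduct narrows into the isthmus. Pregnant and cyclic (not pregnant) mares were sampled on the side of ovulation (ipsilateral) and on the other side (contralateral), with 5 biological replicates in each of 4 groups. They are named PI (pregnant ipsilateral), PC (pregnant contralateral), CI (cyclic ipsilateral) and CC (cyclic contralateral), followed by the replicate number. The labels do not say whether oviducts of the same status and number came from the same mare. They give a stranded total RNA kit with depletion of ribosomal RNA, but polyA RNA as the molecule.

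Oviduct epithelium is made of multiciliated cells, whose beating cilia move fluid and the embryo, and secretory cells, which make the fluid around it. In sequencing, a library yields a limited number of reads. A single RNA that takes many of them leaves fewer for all other genes, and values of those genes scaled to the library total then fall even where their RNA is the same. The trimmed mean of M values (TMM), a scaling method, sets libraries to a common scale from the bulk of genes for that reason.

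Total reads, recovered from the deposited values and summed over the listed features, ran from 2795168 in PI1 to 10126484 in CI2. Reads that fell on no listed feature are not counted, so "all reads" below means reads on listed features. Genes of the epithelium and of other cell types had reads in the libraries. The adhesion molecule EPCAM was at 1115 to 2413 normalized counts (the deposited TMM-scaled values), the cilia regulator FOXJ1 at 2774 to 6344 and the lineage factor PAX8 at 1410 to 2491, while the oviductal glycoprotein OVGP1 was at 0 to 15.4. The leukocyte gene PTPRC was at 100.9 to 704 normalized counts, the collagen gene COL1A1 at 75.9 to 1450.3 and the smooth muscle myosin MYH11 at 126 to 1380.1, all above 0 in every library. In bulk samples such as these, fewer cells of a type and less RNA per cell cannot be told apart.

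In the PI group the feature took 14.4%, 8.13%, 0.396%, 27.8% and 1.83% of all reads in PI1 to PI5. In the PC group it took 9.75%, 5.58%, 5.44%, 0.953% and 2.78% in PC1 to PC5. PI thus held both the library richest in the feature and one near the lowest of the study, and all PC values lay inside the PI range. In the CI group the shares were 7.67%, 4.47%, 15.4%, 2.22% and 3.49% in CI1 to CI5. In the CC group they were 5.95%, 2.38%, 1.39%, 2.15% and 0.310% in CC1 to CC5. All 4 groups overlapped, with the lowest share in CC5 and the highest in PI4, an 89.8-fold range. The feature exceeded 10% in 3 libraries and 5% in 9, and stayed under 1% in 3.

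These shares rest on many reads, from 14752 in CC5 to 1227696 in PI4. The 95% exact (Clopper-Pearson) interval was 0.305% to 0.315% in CC5 and 27.8% to 27.8% in PI4. When the 20 libraries were ordered by share, no neighbouring intervals overlapped. The intervals cover counting error only. As deposited, the level was 399605 ± 486233 normalized counts over all libraries (SD, n = 20). It was 729011 ± 828714 in PI, 299469 ± 207861 in PC, 426324 ± 381816 in CI and 143615 ± 127577 in CC (SD, n = 5). The order by mean was PI, CI, PC and CC, and by median share PI (8.13%), PC (5.44%), CI (4.47%) and CC (2.15%). Each step between neighbours in either order was smaller than the SD of the higher group.

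**Figure D1:**
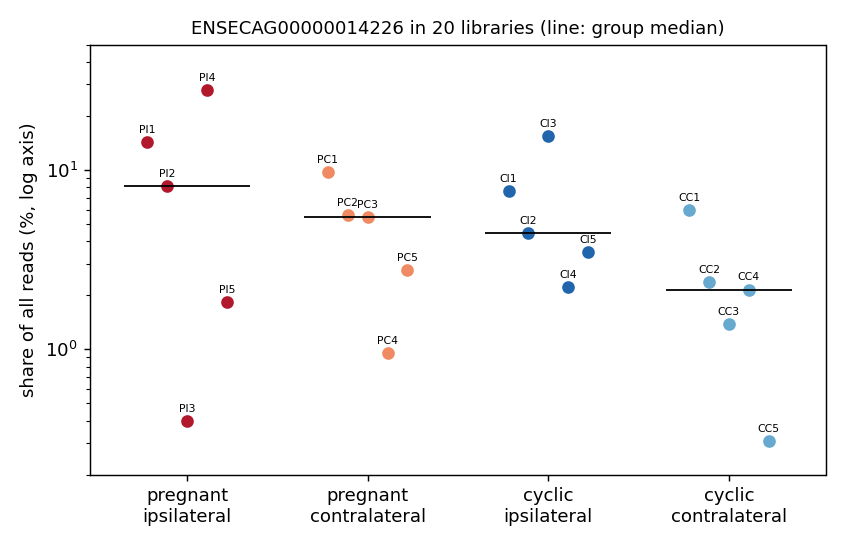
Share of all reads taken by ENSECAG00000014226 in each library (y axis, percent, log axis) by group; each point is 1 library and each line a group median. The points of all 4 groups overlap, with PI3 (0.396%) and CC5 (0.310%) at the bottom and PI4 (27.8%) at the top.

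The feature ranked first in 13 of the 20 libraries. Its rank was 2 in PI5, PC5, CC3 and CC4, 3 in PC4 and 8 in PI3 and CC5. The most abundant other feature was MT-CO1, the mitochondrial gene of a cytochrome c oxidase subunit, in all 20 libraries. The read count of the feature was 22.2 times that of MT-CO1 in PI4 and 0.207 times in CC5. Its mean level was 2.77 times that of MT-CO1 (144288 ± 91340 normalized counts, SD, n = 20). It was 6.6 times that of PKHD1L1, the large fibrocystin-like membrane protein, and 12.3 times that of SYNE1, a giant nuclear envelope protein. CD74, a chaperone of antigen-presenting molecules, and MT-CO3, another cytochrome c oxidase gene, came next in mean level. The next feature without a symbol, ENSECAG00000015633, averaged 10110 ± 3235 normalized counts, so the first was 39.5 times higher.

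**Figure D2:**
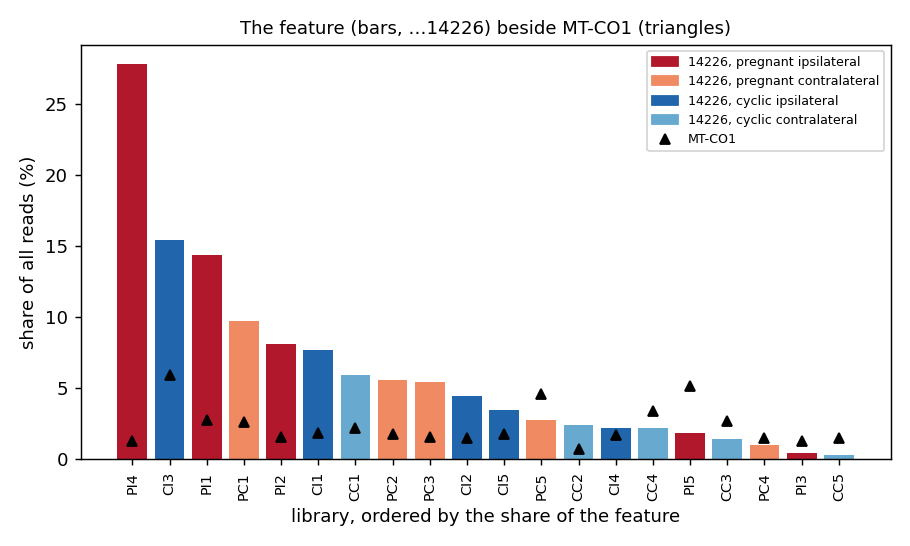
Share of all reads (y axis, percent) of ENSECAG00000014226 (bars, coloured by group) and of MT-CO1 (triangles) in each of the 20 libraries, ordered by the share of the feature. The bars fall from 27.8% in PI4 to 0.310% in CC5, while the triangles stay between 0.741% in CC2 and 5.93% in CI3.

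The feature also varied strongly between libraries. The SD of the log2 level over the 20 libraries was 1.77 for ENSECAG00000014226. Among the 100 features of highest mean it was the most variable, ahead of LRP2, the endocytic receptor megalin, at 1.07, with a median of 0.44. Among all 9851 features with a mean of at least 10 CPM, the usual scaling of read counts to the library total,, 17 varied more, so that it stood at rank 18, and the median was 0.33. MT-CO1 varied 8.0-fold between its lowest and highest share and PKHD1L1 4.03-fold, against 89.8-fold for the feature.

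Oviducts of the same status and number were then set side by side. In 6 of the 10 pairs the feature differed by less than 2-fold, from 1.05-fold in cyclic number 4 to 1.88-fold in cyclic number 2. In the other 4 pairs it differed by more than 10-fold. Pregnant number 4 held 27.8% on the ipsilateral and 0.953% on the contralateral side, a 36.9-fold difference in normalized counts. Pregnant number 3 went the other way, with 0.396% and 5.44%, a 14.7-fold difference. Cyclic number 3 held 15.4% and 1.39% (13.3-fold), and cyclic number 5 3.49% and 0.310% (11.7-fold). The ipsilateral oviduct had the higher level in 3 of 5 pregnant and 5 of 5 cyclic pairs. In deviations from the group means over all features kept, cyclic numbers 3 (correlation of 0.023) and 4 (−0.041) were not most alike within their own number. The folds of cyclic numbers 3 and 4 may therefore not compare oviducts of the same mare.

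In each of those 4 pairs, 0 of the 9850 other features with a mean of at least 10 CPM were as far apart as ENSECAG00000014226. The next farthest, named after their values were seen, were ENSECAG00000002859 in pregnant number 4 (5.3-fold) and the smooth muscle myosin MYH11 in pregnant number 3 (4.5-fold). They were the membrane transporter NIPAL1 in cyclic number 3 (6.62-fold) and DPYSL3, a cytoskeletal regulator, in cyclic number 5 (4.64-fold). The median feature differed by 1.22-fold in pregnant number 4, 1.09-fold in pregnant number 3, 1.36-fold in cyclic number 3 and 1.09-fold in cyclic number 5. In the other 6 pairs the feature was not the farthest apart, with 155 to 8932 features differing at least as much. Across all 14692 features, deviations from the group means went together in same-numbered pregnant oviducts (correlations across genes of 0.53 to 0.70), number 4 included at 0.641 and number 3 at 0.530. In cyclic mares they were 0.023 for number 3, −0.041 for number 4 and 0.621 for number 5. Most alike within their own number were 5 of 5 pregnant and 3 of 5 cyclic pairs.

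**Figure D3:**
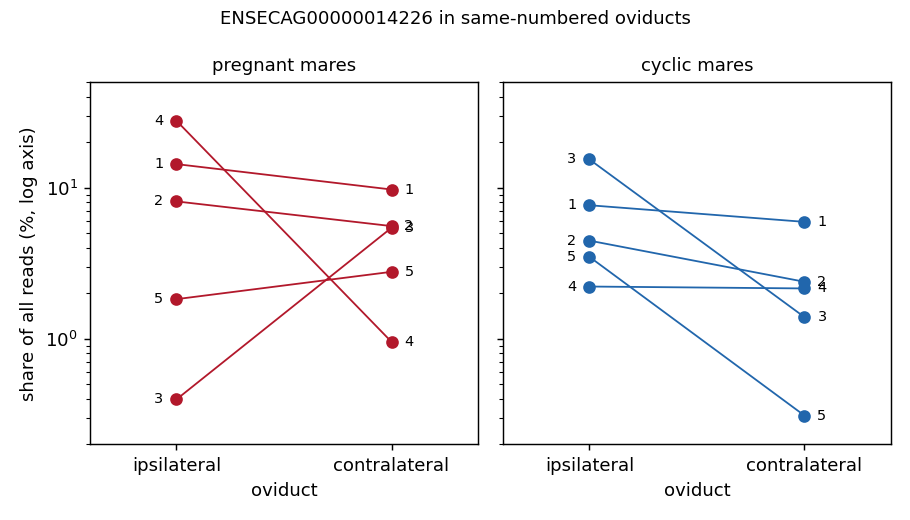
Share of all reads of ENSECAG00000014226 (y axis, percent, log axis) in the ipsilateral and contralateral oviduct of the same status and replicate number (line with number), for pregnant mares on the left and cyclic mares on the right. Lines 3 and 4 of the pregnant mares cross each other steeply, lines 3 and 5 of the cyclic mares fall steeply, and the other 6 change by less than 2-fold.

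Median distances were taken as well. With 5 pairs per status, a median does not show the pairs over 10-fold, which reached 36.9-fold in pregnant and 13.3-fold in cyclic mares. Same-numbered oviducts were a median of 1.59-fold apart in pregnant mares, against 4.33-fold for the 20 combinations of different numbers. In cyclic mares these values were 1.88-fold and 3.13-fold. The mean ipsilateral minus contralateral difference was 0.38 ± 3.26 on the log2 scale in pregnant mares and 1.73 ± 1.77 in cyclic mares (SD, n = 5 pairs).

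The group comparisons asked whether the level of the feature depends on pregnancy or on the side of ovulation. They use the log2 level of all 20 libraries, fitted with limma over 14692 features, and the choice by mean level did not use them. For pregnant against cyclic mares the log2 difference was −0.11 ± 1.0 on the ipsilateral side (SE; 95% interval −2.19 to 1.98; adjusted p = 0.999). It was 1.25 ± 1.0 on the contralateral side (−0.84 to 3.33; adjusted p = 1.0). Averaged over both sides it was 0.57 ± 0.71 (−0.91 to 2.04; adjusted p = 0.924). None of these passed the test. On the ipsilateral side the direction depends on the scale: the mean share was higher in PI (10.5%) than in CI (6.65%), but the mean log2 level was lower. There the edgeR and DESeq2 fits on recovered reads, which compare mean counts, gave 0.78 and 0.78.

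For ipsilateral against contralateral oviducts the log2 difference was 0.38 ± 1.0 in pregnant mares (SE; 95% interval −1.71 to 2.46; adjusted p = 0.999) and 1.73 ± 1.0 in cyclic mares (−0.36 to 3.82; adjusted p = 1.0). The cyclic difference, 3.32-fold, was the largest in absolute size of all 14692 features. It still did not pass, since its SE of 1.0 was the 17th highest, where the median feature had 0.25. Averaged over both statuses the difference was 1.05 ± 0.71 (−0.42 to 2.53; adjusted p = 0.999), again the largest in size of all features. Without PI1, PI4 and CI3, the 3 libraries over 10%, the side difference averaged over statuses was 0.095. The pregnancy difference averaged over sides was then 0.044, and that between PI and PC turned to −1.11. These 3 were picked for their high level and are all ipsilateral, so a lower side difference follows from the choice. The interaction, the pregnancy difference on the ipsilateral side minus that on the contralateral side, was −1.35 ± 1.42 (−4.3 to 1.6; adjusted p = 1.0). The intervals are wide: in cyclic mares they run from 0.78-fold to 14.1-fold for the ipsilateral over the contralateral oviduct, so a failed test does not show equal levels.

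**Figure D4:**
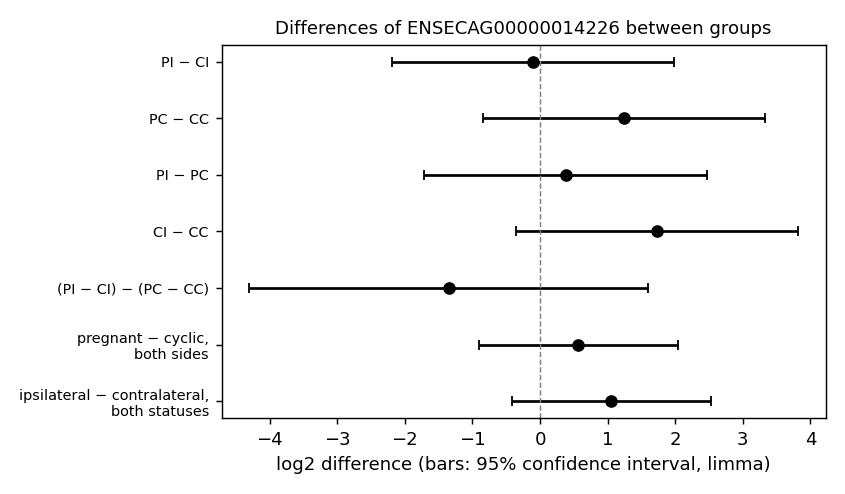
Log2 differences of ENSECAG00000014226 in 7 comparisons (points) with their 95% confidence intervals from limma (bars); the dashed line marks 0. All 7 intervals include 0, from the widest for the interaction (−4.3 to 1.6) to the narrowest for the averaged comparisons.

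As background, limma called 0 of 14692 features (0%) in 6 of the comparisons, with 42 to 669 at an unadjusted p under 0.05. There edgeR called 0 as well (39 to 838 unadjusted), and DESeq2 called 0 (49 to 560 unadjusted), except for PC against CC with 6 (0.0408%; 950 unadjusted). For pregnancy averaged over sides, limma called 16 features (0.109%), edgeR 18 (0.123%) and DESeq2 190 (1.29%). These fits treat all libraries as independent. Same-numbered oviducts had a consensus correlation of 0.393 over all features kept, so the counts for pregnancy averaged over sides may be too high. Cyclic numbers 3 and 4 did not go together (0.023 and −0.041). ENSECAG00000014226 was among none of these calls. Its lowest unadjusted p was 0.0153, by DESeq2 for side averaged over statuses (adjusted p = 1.0).

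Exact permutation tests on the log2 share of reads, 2-sided, 5 against 5 values, were run beside the model. For CI against CC the exact p was 0.0794, and the smallest the design allows is 0.00794. It was 0.238 for PC against CC, 0.897 for PI against CI, 0.802 for PI against PC and 0.468 for pregnancy, taking the mean of same-numbered oviducts as 1 value. For side over all 10 pairs, by exact sign changes within pairs, p was 0.184, with the higher value on the ipsilateral side in 8 of 10 pairs. After Benjamini-Hochberg adjustment over these 6 tests the exact p values ran from 0.476 to 0.897. Without CC1 the exact p for CI against CC was 0.0238 (unadjusted, n = 5 and 4), and without either oviduct of pregnant number 3 that for side was 0.0352 (exact, unadjusted).

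The scaling of other genes was compared with and without the feature. In CPM of all reads, every other gene was lower by 0.47 on the log2 scale in PI4 than in CPM of the remaining reads, by 0.24 in CI3 and 0.22 in PI1, but by 0.0045 in CC5. The deposited totals ran from 5474904 normalized counts in CC5 to 7406356 in PI4. Without the feature they ran from 5346921 in PI4 to 5952492 in PC5, so the library with the highest total became the one with the lowest. TMM factors recomputed with edgeR were 0.817 in PI4, 0.871 in CI3 and 0.924 in PI1, and 1.11 in CC5 and 1.09 in PI3. Deposited total times this factor was the same in all 20 libraries (6052848 normalized counts), so the authors' scaling matched TMM computed with the feature in the table. With the feature left out of the TMM step, the scale of a library moved by a factor of 0.981 to 1.02 only. Between groups, CPM scaling moved the median log2 difference of all features by −0.071 to 0.015 against the deposited scale.

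Genes ranked with the feature were sought by Spearman's rho of log2 levels over the 20 libraries. The points share the depth of their library, and same-numbered oviducts may share a mare, so rho is given as a description with no p. Over all 14691 other features the median rho was −0.017, with 47.9% above 0. There were 42 features with a rho of at least 0.7 and 17 with at most −0.7, both numbers that shift with single libraries (24 to 88 and 7 to 51 with 1 library left out). The named genes are the 10 with a symbol at either end and the 5 highest without one, with a mean of at least 10 CPM. They were chosen by rho in these same 20 libraries. Their values under other settings of the same data are therefore no separate test.

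ZNF777, a zinc finger protein, had the highest rho, 0.868 (Pearson r = 0.819, or 0.768 without CC5 and PI3, the 2 libraries farthest from the median of the feature). From replicate 1 to 5, PI libraries held 326, 234, 168, 278 and 198 normalized counts of it, and PC libraries 249, 243, 229, 224 and 228. CI libraries held 233, 212, 312, 201 and 241, and CC libraries 275, 245, 196, 179 and 190. It was highest in PI1 and CI3 and lowest in PI3, but its 1.94-fold range was far narrower than that of the feature. FBRS (rho = 0.856, r = 0.821) and KMT2B, a histone methyltransferase (rho = 0.838, r = 0.785), were also highest in PI1 and lowest in PI3. FBRS spanned 278 to 555 and KMT2B 546 to 888 normalized counts.

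The other 7 genes at this end were ZGPAT, a zinc finger repressor of transcription (rho = 0.814), BAHD1, a heterochromatin protein (0.786), and KIAA1671 (0.773). After them came PHRF1, a RING finger protein (0.768), the transcriptional corepressor TLE3 (0.765), REXO1 (0.762) and SHROOM2, an actin-binding protein (0.758). Pearson r over the 10 genes was 0.433 (TLE3) to 0.821, and 0.472 to 0.794 without CC5 and PI3. They varied 1.52-fold (BAHD1) to 2.4-fold (REXO1) between libraries. With values centred on group means their rho was 0.758 to 0.887, over the 10 means of same-numbered oviducts 0.721 to 0.915, and without PI1, PI4 and CI3 0.620 to 0.814.

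The lowest rho among genes with a symbol and a mean of at least 10 CPM was −0.788, for ABCD3, a peroxisomal membrane transporter. Its Pearson r was −0.738, or −0.75 without CC5 and PI3. ABCD3 stood at 297 normalized counts in CI3 and 323 in PI1, its 2 lowest libraries, with a median of 450.3 and 526 at most, in CI4. C11orf54 (rho = −0.759), the SMC5/6 complex subunit NSMCE4A (−0.753), the ubiquitin ligase ANKIB1 (−0.750) and the nuclear import receptor IPO8 (−0.749) followed. The histone demethylase KDM1A (−0.722) spanned 1024 (PI1) to 1586 (CI4) normalized counts. After it came TRAPPC8, of a vesicle tethering complex (−0.713), the vesicle fusion protein VAMP7 (−0.710) and CLPX, of a mitochondrial protease (−0.710). Without PI1, PI4 and CI3 the rho of these 9 was −0.662 to −0.539. Each of the 9 was lowest in PI1 or CI3, except IPO8, lowest in CC1.

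Among features without a symbol, a smaller pool, the highest were ENSECAG00000017685 (rho = 0.680), ENSECAG00000011475 (0.671), ENSECAG00000019720 (0.645), ENSECAG00000011905 (0.633) and ENSECAG00000014887 (0.624). The first 4 were highest in PI1 and the last in PC2, and the 5 varied 1.79-fold to 3.67-fold between libraries.

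**Figure D5:**
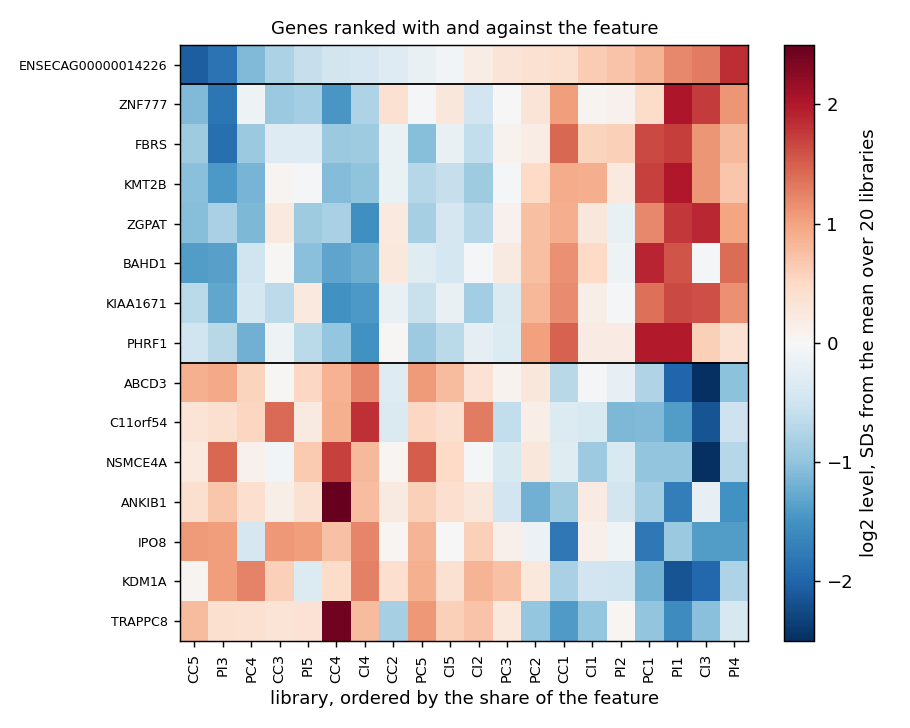
Log2 levels (colour, SDs from the mean of each gene over 20 libraries) of ENSECAG00000014226 (top row) and of the 7 genes with the highest (middle) and lowest (bottom) rho, with libraries ordered by the share of the feature. The middle block turns from blue to red towards PI4 and the bottom block from red to blue, with PI1 and CI3 the most extreme in many rows.

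Gene lists were described in the same way, by the number of members on either side of 0 and the median rho, to be read against −0.017 and 47.9% for all features. Members of a list can rise and fall together, so a count of members is not a count of independent results. Mitochondrially encoded transcripts, which code for respiratory chain subunits, had a positive rho in 13 of 13 members, from 0.343 (MT-ND5) to 0.484 (ATP6), with a median of 0.386. Together they took 10.2% of the reads of other features in CI3 and 5.64% in PI1, but 3.08% in PI4, the library richest in the feature. They were also high in PI5 (8.28%) and PC5 (7.44%), which held 1.83% and 2.78% of the feature, and lowest in CC2 (1.3%). The rho of that sum with the feature was 0.373, and its Pearson r on the log2 scale 0.35, or 0.20 without CC5 and PI3.

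Respiratory chain subunits encoded in the nucleus had a negative rho in 49 of 50 members, with a median of −0.269. The ends were SDHD, a subunit of succinate dehydrogenase (−0.8), which was near the counting floor at 0 to 17.7 normalized counts, and ATP5I, of ATP synthase (0.032). Without PI1, PI4 and CI3, 23 of 50 were negative and the median was 0.016. Cytoplasmic ribosomal proteins were negative in 57 of 60, with a median of −0.165, from RPL38 (−0.284) to RPL14 (0.141). Their share of other reads was 1.94% in PI1, 2.25% in CI3 and 2.85% in PI4, against 7.47% in CC2 at most. It was also low in libraries with little of the feature, at 2.55% in CC4, 2.80% in PI5 and 3.06% in PI3. Without PI1, PI4 and CI3 all 60 had a positive rho, with a median of 0.254, so the direction turned without those 3 libraries. Over means of same-numbered oviducts it turned for both lists, to 33 of 50 positive (median 0.091) and 31 of 60 (0.012).

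Interferon-stimulated genes, the antiviral effectors that interferons induce, were positive in 30 of 35, with a median of 0.156, from IFI27 (−0.174) to the transcription factor IRF7 (0.317). Without PI1, PI4 and CI3 they were positive in 13 of 35, with a median of −0.047, and centred on group means in 18 of 35. Markers of T and NK cells were positive in 17 of 20 (median 0.197), from the protease GZMK (−0.209) to the T cell receptor subunit CD247 (0.373). By Pearson r 11 of these 20 were positive, with values centred on group means 10, and over the means of same-numbered oviducts 19 (median 0.533). Their summed share of other reads was between 0.00459% and 0.0270% in all libraries, with part of the list near the counting floor. The part of leukocytes in the level of the feature was not tested.

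Markers of the epithelium differed by list. Multiciliated cell markers were positive in 20 of 38 (median 0.020), from ENKUR (−0.490) to CCDC78 (0.480), both ciliary genes. Of these 38, 26 were positive without PI3 and CC5 (0.189), 12 without PI1, PI4 and CI3 (−0.088) and 13 centred on group means (−0.089). General epithelial markers were positive in 6 of 11 (median 0.012), from EPCAM (−0.475) to the splicing regulator ESRP2 (0.674). The summed share of this list had a rho of −0.286 with the feature (r = −0.305, or −0.386 without CC5 and PI3). Of its 11 members, 5 were positive without PI3 and CC5 (−0.179) and 8 without PI1, PI4 and CI3 (0.093). Oviduct secretory markers were positive in 10 of 13 (median 0.209), from the iron-binding protein LTF (−0.177) to EMX2, a transcription factor of the reproductive tract (0.505). They were positive in 10 of 13 by Pearson r and centred on group means, and in 8 of 13 over means of same-numbered oviducts and without PI1, PI4 and CI3. The summed share of the secretory list had a rho of only 0.020 with the feature (r = 0.158, or 0.166 without CC5 and PI3). Stromal fibroblast markers were positive in 7 of 20 (median −0.029), smooth muscle in 6 of 12 (0.0038) and endothelial in 9 of 15 (0.0075). The summed share of the endothelial list had a rho of 0.474 with the feature (r = 0.384, or 0.337 without CC5 and PI3), led by the clotting factor carrier VWF (0.451) among single members. Over means of same-numbered oviducts 11 of these 15 were positive (median 0.261), and without PI3 and CC5 4 of 15 (−0.073). Macrophage and dendritic cell markers were positive in 8 of 17 (−0.033) and B and plasma cell markers in 4 of 9 (−0.020). Of 13 erythrocyte genes sought by symbol, 7 were found and 2 of these kept, and genes listed without a symbol could not be looked up. Immediate-early and heat shock genes, a sign of handling, were positive in 10 of 21 (median −0.0045). Of these 21, 15 were positive centred on group means (0.111), 16 over means of same-numbered oviducts (0.139) and 8 without PI3 and CC5 (−0.063). Their summed share had a rho of −0.344 with the feature. The part of handling was not tested. Histone genes of the replication-dependent class were positive in 8 of 23 (−0.050). Of the 23 histone genes 1 was positive with values centred on group means (median −0.227), 3 over means of same-numbered oviducts (−0.115) and 13 without PI3 and CC5 (0.053).

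Small structural RNAs of the cell, such as spliceosomal, nucleolar and ribosomal RNAs, are listed as 1288 features, and all 1288 stand at 0 reads in all 20 libraries. Whether these classes were counted is not given in the sources used here, so 0 reads does not show that they were absent. Of the nuclear-retained long noncoding RNAs sought by symbol (MALAT1, NEAT1, XIST, KCNQ1OT1 and MEG3), 0 were found.

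Depth was set beside the feature as well. Total reads had a rho of −0.313 with it (Pearson r on the log2 scale −0.33, or −0.47 without CC5 and PI3). Reads from other features, which are the total less its own reads and so fall with its share by construction, had a rho of −0.429 (r = −0.46, or −0.60 without CC5 and PI3). The 3 libraries over 10% were the 3 with the fewest such reads, PI1 with 2393824 other reads, CI3 with 3261902 and PI4 with 3187473. The number of features with at least 1 read, 15930 to 17542, had a rho of −0.595 (r = −0.56, or −0.44 without CC5 and PI3). Their part in the genes and lists ranked with the feature was not tested.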

How the data were processed

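RNA sequencing of 20 libraries (4 groups of 5) was used as deposited. The labels' protocols name a stranded kit for total RNA and depletion of ribosomal RNA. Per the submitters' processing notes, CASAVA 1.8 was used. Not given in the sources used here are aligner, counter, strand setting, build and annotation. Without the strand setting, reads of overlapping or antisense genes cannot be told apart. The authors deposited TMM-normalized counts, a signal per gene in which each library's counts are multiplied by 1 factor. Within a column, each nonzero value is a whole number of steps of the same size, so reads were recovered (100% of values within 0.01 reads).

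Features over 1 CPM in at least 5 libraries were kept. Log2 levels used a pseudocount of 0.5 CPM (3.03 normalized counts), so folds of low genes are understated. One limma model (3.58.1, R 4.3.3; 4 group means, trend and robust moderation, 2-sided, Benjamini-Hochberg at 0.05) gave 7 comparisons. edgeR 4.0.16 and DESeq2 1.42.0 were run on the recovered reads. The procedures were tested on simulated data. A count of 0 allows up to 3 reads (1.75 to 7.03 normalized counts, by library).

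The series' design text calls the samples biological replicates, but no mares are named, so p-values measure the spread between these samples. Same-numbered pregnant oviducts deviated together over all features (correlations of 0.53 to 0.70 in 5 of 5 pairs), whereas cyclic ones did not in every pair (−0.041 to 0.679). Named genes are the 10 highest and 10 lowest rho with a symbol and the 5 highest without, at a mean of at least 10 CPM; 1 of them is not reported here. The feature, the 18 gene lists and the naming rule were chosen with earlier results of these data known. Alternatives were other pseudocounts, filters, scalings, tests, weights, blocks and left-out libraries.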

Additional observations from a re-analysis of the deposited data

Results flagged for a closer look

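In each group of 5 libraries, 4 quantities were looked at for a library far from the others: the share and the log2 level of ENSECAG00000014226, total reads and the mitochondrially encoded share. Chance singles out about 1 in 20 groups. No share or level of the feature stood apart in this way, since its values are spread within every group. PC4 had 10015464 reads, against 5522831 to 6510221 in the other PC libraries. In CI3 mitochondrially encoded transcripts took 10.2% of the reads of other features, against 2.48% to 3.18% in the other CI libraries. CI3 was also the CI library with the largest share of the feature (15.4%).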

How the results depend on the processing

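None of the 7 differences of ENSECAG00000014226 passed under any alternative fit (adjusted p 0.678 to 1.0). Another pseudocount or filter and both CPM scalings kept every direction. Directions turned for PI against CI with edgeR (0.778) and DESeq2 (0.783), and in percent not logged (3.85, exact p = 0.563; chosen after seeing the data, as was the log2 deposited value). They turned for PI against PC with library weights (−0.216), and without PI1, PI4 and CI3 in the model (−1.11) and in the exact test (−1.07, exact permutation p = 0.411). With 1 library left out the log2 differences ran from −0.81 to 0.83 for PI against CI, 0.62 to 1.75 for PC against CC, −0.32 to 1.32 for PI against PC and 1.10 to 2.20 for CI against CC. Single libraries turned the direction of PI against CI (0.83 without PI3, 0.26 without PI5, 0.024 without CI1 and 0.33 without CI3) and PI against PC (−0.038 without PI1, −0.32 without PI4 and −0.13 without PC4). The ranges were −2.05 to −0.41 for the interaction, 0.22 to 1.04 for pregnancy and 0.70 to 1.52 for side. For the log2 share they ran from −0.80 to 0.73, 0.57 to 1.68, −0.32 to 1.21 and 1.05 to 2.11 for the first 4, and 0.023 to 0.996 for pregnancy and 0.56 to 1.52 for side. The replicate block changed no call: with it CI against CC was at 1.73 ± 0.91 with fixed terms (unadjusted p = 0.078, limma) and 1.73 ± 0.86 as a random effect. Exact sign changes within the 5 cyclic pairs gave p = 0.0625, the smallest they allow. The direction of the averaged differences stayed without PI1, PI4 and CI3, but they fell to 0.044 for pregnancy and 0.095 for side. These libraries were picked for their high level and are all ipsilateral, so a lower side difference follows from the choice. Other causes were not tested.

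The numbers of features with a rho of at least 0.7 and at most −0.7, 42 and 17, were 13 and 6 by Pearson r, 150 and 68 centred on group means, and 410 and 404 over 10 means of same-numbered oviducts, where fewer points give larger values. They were 12 and 9 without PI1, PI4 and CI3, and 81 and 66 without PI3 and CC5, an alternative added after seeing the data. With 1 library left out the first number ran from 24 to 88: 24 without PI1, 25 without PC1, 65 without PC4, 68 without CC2, 69 without CC5, 72 without CC3 and 88 without PI5. The second ran from 7 to 51: 7 without PI1, 11 without PC1, 27 without PC5, 29 without PI2, CI2 or CC3, 31 without PC4, 33 without CC5, 34 without CC2, 35 without PI3, 40 without CC4 and 51 without PI5. Of 175 rho values of named genes under 7 alternatives, 26 moved by more than their jackknife standard error, as did 9 of 112 medians of lists and of all features.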
